A study of Macaca mulatta with 4 samples.

Results

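Chromosome 17 of the rhesus macaque (Macaca mulatta) was described through its 9556 bins of 10 kb, of 283406 bins over all chromosomes, for H3K27me3 coverage in morulae. The bins run from the first base of the chromosome to 95556141, the highest interval end in any library on the build rheMac8. The chromosome was chosen by its measured coverage in these same libraries, which was far below the autosomal level in GG and near it in AG (values below). The coverage of the chromosome in AG and GG is therefore given as a description without a test. The 4 libraries were 2 labelled AG and 2 labelled GG, all from morulae, with anti-H3K27me3 as the antibody. AG stands for androgenetic embryos, whose nuclear genome is paternal only, and GG for gynogenetic embryos, whose nuclear genome is maternal only. All groups share the stage, the antibody and the CUT&RUN assay, in which an antibody-bound nuclease cuts out the DNA around the mark. The labels give neither the number nor the sex of the embryos in a library, nor whether replicates are separate pools, so the spread between replicates may be technical. No biparental embryo and no control library was used here.

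H3K27me3 is placed by Polycomb repressive complex 2 and is found over silent genes, among them many regulators of development. In mouse, oocytes carry broad H3K27me3 domains, and some persist on the maternal genome after fertilization and silence maternal alleles, a form of imprinting without DNA methylation. Embryos with genomes from a single parent let the mark be read on paternal and on maternal chromosomes separately. Macaque chromosome 17 corresponds to human chromosome 13, a gene-poor chromosome. In the RefSeq annotation of another macaque assembly, T2T-MMU8v2.0, 368 protein-coding genes are named on chromosome 17, and the other autosomes hold from 319 (chromosome 18) to 2164 (chromosome 1). Genes named there on 17 include the homeobox genes CDX2, a trophectoderm factor, PDX1, a pancreas factor, and GSX1. Others are the neural factors SOX1, SOX21, ZIC2, ZIC5 and POU4F1, and FGF9 and FGF14 of the fibroblast growth factor family. Since coordinates differ between builds, no gene was placed on a bin and no sequence of the bins was read.

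Each library is a list of intervals, which are stretches under sequenced tags on islands that the submitters called enriched. Genome-wide, AG replicate 1 listed 42512 intervals, AG replicate 2 listed 44337, GG replicate 1 listed 362999 and GG replicate 2 listed 287230. Chromosome 17 held 1383 and 1327 of these in AG and 4677 and 3124 in GG, and no interval was identical between any pair of libraries. Covered bases say where islands lie and how much of them is under tags. Tag counts are not in the intervals, so the depth is unknown. AG islands were called with a gap of 200 bp and GG islands with a gap of 1200 bp, so calling settings and groups cannot be told apart, and every level below is a level under those settings.

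Chromosome 17 was the least covered autosome in GG and a middling one in AG. It was covered to 0.566% and 0.631% in AG replicates 1 and 2 and to 2.67% and 2.09% in GG replicates 1 and 2. The libraries of the groups did not overlap, and GG remained the higher group in bases under intervals. AG averaged 0.598% ± 0.0461 (SD, n = 2), and the GG average was 2.38% ± 0.414 (SD, n = 2). The ratio of GG to AG was thus 3.98, the lowest of the 20 autosomes, of which chromosome 18 at 6.40 and chromosome 11 at 8.19 came next and chromosome 10 at 19.7 was the highest. Relative to the covered percentage of all autosomes in the same library, chromosome 17 stood at 1.14 and 0.993 in AG and at 0.343 and 0.289 in GG. Chromosome 5 was the next lowest in GG, at 0.579 and 0.507. In AG, 10 and 7 of the other 19 autosomes lay below chromosome 17 in replicates 1 and 2. The replicates also differed more here than elsewhere in GG: replicate 2 had 0.781 times the covered bases of replicate 1, against 0.812 to 1.08 on the other autosomes.

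**Figure D1:**
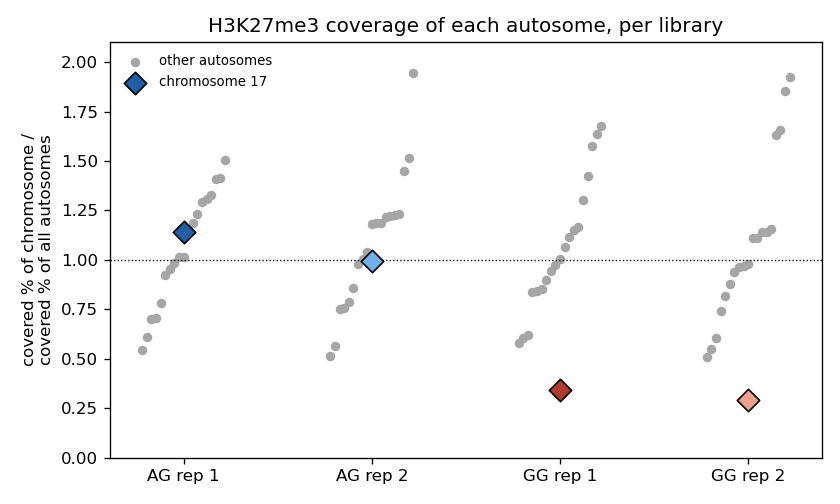
Covered percentage of each of the 20 autosomes divided by that of all autosomes in the same library (y axis, no unit), for the 4 libraries. Grey points are the other 19 autosomes in order of their value and the diamond is chromosome 17, which lies at 1.14 and 0.993 in AG and below every other autosome, at 0.343 and 0.289, in GG.

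The near-autosomal level in AG was an average of a rich start, a rich end and a nearly bare interior. The first 10 Mb, 10.5% of the span, held 47.1% and 49.8% of the covered bases of chromosome 17 in the AG libraries (replicate 1, then 2), whereas the GG libraries had 29.3% and 33.8% there. Much of this AG share lay in a block from 2300001 to 2420000, with 16.4% and 14.7% of the AG bases of chromosome 17. A stretch from 8830001 to 9270000 held another 14.4% and 14.2%. Both places, described below, were picked after their values were seen. The last 5.8% of the span, beyond 90 Mb, held another 26.3% and 25.7% in AG, and coverage there was 2.56% and 2.79% in AG, against 8.27% and 7.44% in GG. The 80 Mb between them were covered to 0.180% and 0.184% in AG and to 1.68% and 1.13% in GG. The ratio of GG to AG was 2.56 in the first 10 Mb, 7.74 in the interior and 2.94 beyond 90 Mb. Crowding near the ends was not particular to chromosome 17. The share of bases within 10 Mb of an end, divided by the share of bins there, was 3.52 and 3.61 in AG. The other autosomes had medians of 2.47 and 2.36 and reached 4.34 and 3.86. In GG it was 2.56 and 2.89, against medians of 2.05 and 2.29.

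In windows of 5 Mb the contrast between the start and the interior was sharp in AG. The windows from 0 and from 5 Mb were covered to 2.53% and 3.03% in the mean of the AG libraries, which ranked 19 and 11 among 536 autosomal windows. Mean GG coverage in these windows was 6.39% and 7.84%, at ranks 222 and 200. The window from 0 Mb includes the block from 2300001 to 2420000, with 88.9 and 88.4 kb covered in AG. The window from 5 Mb includes the stretch from 8830001 to 9270000, with 78.1 and 85.4 kb. The AG ranks were not computed without these places. From 10 to 80 Mb the highest AG mean was 0.520%, in the window from 45 Mb, and the highest GG mean 3.50%, in the window from 20 Mb. The window from 60 to 65 Mb held no base in any library. Of the 19 full windows of chromosome 17, 17 had both GG libraries above both AG libraries, or 89.5%, against 97.6% of the 536 autosomal windows. The exceptions were that bare window and the one from 45 Mb, covered to 0.442% and 0.599% in AG and to 0.499% and 0.491% in GG.

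**Figure D2:**
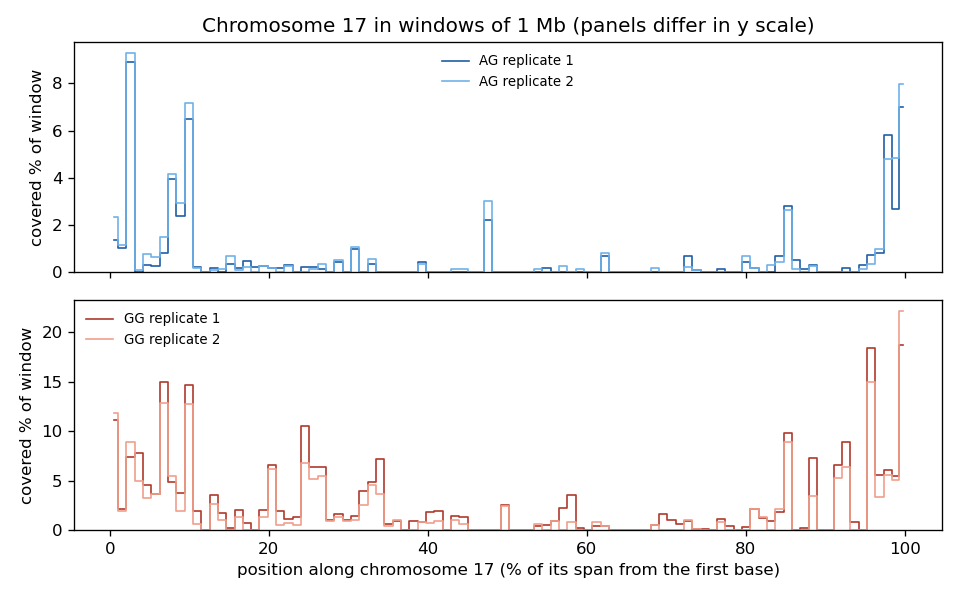
Covered percentage of windows of 1 Mb (y axis, percent) against the position along chromosome 17 (x axis, percent of its span), with AG libraries above and GG libraries below on separate scales. Most coverage in AG lies in the first 10.5% and the last 5.8% of the span, while GG has further peaks between them.

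Set beside the other autosomes at the same distance from a chromosome end, AG and GG parted near the ends and came closer in the interior. Within 5 Mb of an end chromosome 17 had 1.48 and 1.33 times the coverage of the other autosomes in AG replicates 1 and 2, while GG had 0.390 and 0.332 times that of the others. From 5 to 10 Mb the values were 1.92 and 1.80 times in AG and 0.437 and 0.367 times in GG. AG replicate 2 was then above all 19 other autosomes and AG replicate 1 above 17 of them. The block from 2300001 to 2420000 lies within 5 Mb of an end and held 16.4% and 14.7% of the AG bases of chromosome 17. The stretch from 8830001 to 9270000, which lies from 5 to 10 Mb, held 14.4% and 14.2%. Both places, described below, were picked after their values were seen, and the ratios were not computed without them. More than 20 Mb from an end, chromosome 17 was the least covered autosome in all 4 libraries, at 0.367 and 0.329 times the others in AG and 0.220 and 0.158 times in GG. So the interior was low in both groups, and GG was below the pooled level of the others at every distance. Beyond 20 Mb, AG coverage averaged 0.139% ± 0.0153 (SD, n = 2), whereas that of GG was 1.12% ± 0.359 (SD, n = 2).

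**Figure D3:**
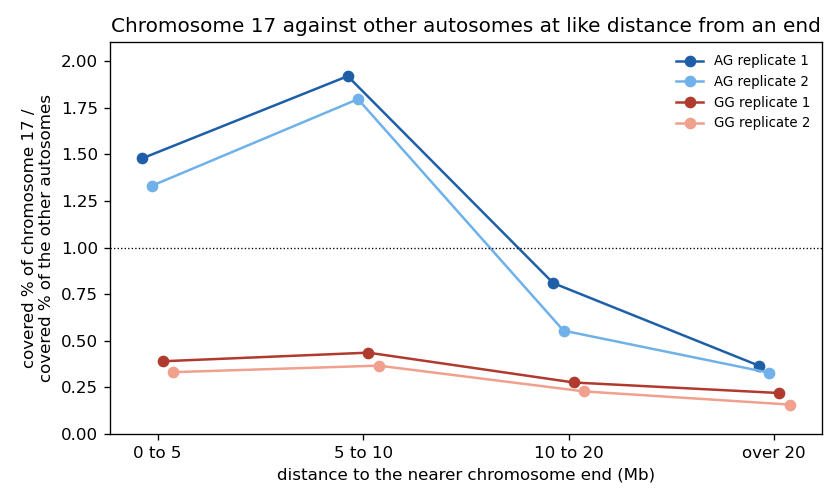
Covered percentage of chromosome 17 divided by that of the other autosomes at the same distance from the nearer chromosome end (y axis, no unit; x axis in Mb), with a line for each library. AG lies above 1 within 10 Mb of an end and at 0.367 and 0.329 beyond 20 Mb, while GG lies at 0.437 or lower throughout. The AG values within 10 Mb of an end include the block from 2300001 to 2420000 and the stretch from 8830001 to 9270000.

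Few bins of chromosome 17 carried any interval, and few of those carried intervals of both groups. A base in at least 1 library was found in 779 bins (8.15%), the lowest share of any autosome, against 10.2% to 25.9% on the others. Of these bins 310 had bases in 1 library only, 352 in 2, 53 in 3 and 64 in all 4. A bin was called marked with at least 450 covered bases, or 3 times the most common interval length of 150 bp. Of the AG libraries, replicate 1 had 187 marked bins and replicate 2 had 250, and of the GG libraries replicate 1 had 533 and replicate 2 had 379. In both AG libraries 145 bins (1.52%) were marked, where 1.40% of all bins of the genome were. In both GG libraries 348 bins (3.64%) were marked, where 10.3% of all bins were. Without AG replicate 1 the AG count is 250, and without GG replicate 2 the GG count is 533. With every library thinned to the 42512 intervals of the smallest, 144 bins stayed above the minimum in AG and 63 in GG, so that the order of the groups on chromosome 17 turned round. Chromosome 17 held 3.25% and 2.99% of the AG intervals and 1.29% and 1.09% of the GG intervals. At equal totals GG thus keeps fewer intervals here, so the turn reflects the low GG share for which the chromosome was chosen. Over all autosomes the thinned counts were 3916 in AG and 6442 in GG, and GG remained the higher group.

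AG and GG shared a smaller part of the AG bins here than on any other autosome, on a chromosome chosen for its low GG coverage. A share of this kind can be lower where GG bins are few, which was not tested, and it adds no separate evidence. Chromosomes 5, 2 and 18 were the next lowest in GG bins, at 5.53%, 6.02% and 6.09%. They shared 67.3%, 68.9% and 47.1% of their AG bins. Both GG libraries marked 3.64% of the bins here and 10.5% on the other autosomes, where 60.9% of the AG bins were shared. Of the 145 AG bins 57 (39.3%) were also marked in both GG libraries, whereas the other autosomes ranged from 46.5% (chromosome 20) to 77.4% (chromosome 4). The same 57 bins made up 16.4% of the GG bins, the highest share of any autosome, in the smallest GG set of any autosome. Another 73 AG bins (50.3%) had no base in either GG library, against 16.1% to 46.6% elsewhere. Beyond 10 Mb from an end this share was 52.6%, above all 19 other autosomes. Within 10 Mb it was 49.5%, above 14 of them. In the other direction 247 GG bins (71.0%) had no AG base, just under the lowest other autosome, chromosome 18 at 71.4%. At the level of bases, 36.3% and 41.1% of the AG replicate 1 bases and 33.5% and 37.6% of the AG replicate 2 bases lay under GG replicates 1 and 2. The first 3 shares were the lowest of any autosome and the last the third lowest, chromosome 20 being lowest at 36.8%. By bases the AG libraries, by contrast, overlapped each other more on chromosome 17 than on any other autosome. Of the AG replicate 1 bases, 65.4% lay under AG replicate 2, against at most 63.1% elsewhere. The block from 2300001 to 2420000, described below, held 16.4% and 14.7% of the AG bases here, and the overlap was not computed without it. Of bins marked in either AG library, a fraction of 0.497 was marked in both, below chromosome 13 at 0.509.

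Bins in which AG exceeded GG were frequent. Both AG libraries lay above both GG libraries in 109 of the 779 bins with a base (14.0%), against 3.33% of such bins over the genome and 1.28% to 7.39% on the other autosomes. Both GG libraries lay above both AG libraries in 337 bins (43.3%), against 63.5% over the genome. These counts depend on the libraries and on scale: without AG replicate 1, AG was above in 193 bins, and without GG replicate 2, GG was above in 523. Divided by each library's autosomal total, AG was above in 150 bins and GG in 268. Among the 64 bins with a base in all 4 libraries, AG was the higher group in 23 (35.9%) and GG in 32 (50.0%), against 4.01% and 87.2% over the genome. On no other autosome did AG lead in more than 6.85% of such bins. The contrast is that on which the chromosome was chosen, so these shares add no separate evidence. All 23 bins lay in the first 10 Mb, and 11 of them in a block from 2300001 to 2420000, whose edges were picked after its values were seen. Outside that block AG led in 12 of 53 bins (22.6%). Of these 12, only the bin from 6540001 to 6550000 and the run from 7420001 to 7440000 stood alone. All the others lay from 9000001 to 9270000. They fall in the stretch from 8830001 to 9270000, described below, which was also picked after its values were seen. The lead of AG in such bins was thus mostly confined to these places. Keeping intervals only in clusters of at least 1000 bp by the same rule in all libraries left 15 of 51 bins (29.4%), with at most 7.14% on another autosome.

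In the bins shared by both groups, GG was fuller than AG, by less than on the other autosomes. Over these 57 bins the median of covered bases was 3691 in AG replicate 1, 3331 in AG replicate 2, 4626 in GG replicate 1 and 5328 in GG replicate 2. On the other autosomes the 2316 shared bins held medians of 2318 and 2399 in AG and 8156 and 8378 in GG. Shared bins of chromosome 17 were thus fuller in AG and emptier in GG than shared bins elsewhere. Outside the block near 2.3 Mb, the medians of the other 46 bins were 3242 and 2898 in AG and 4977 in each GG library, while the 11 bins inside it had 7995 and 8022 in AG and 4020 and 7018 in GG. Bins marked only in AG, without a GG base, did not stand apart, with medians of 2029 and 2105 bases in AG against 1964 and 1954 elsewhere.

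In GG the marked stretches of chromosome 17 were also thinner. The median marked bin contained 4530 covered bases in GG replicate 1 and 5328 in GG replicate 2, below every other autosome, of which chromosome 5 was lowest at 5095 and 6445. Bins with at least 9000 covered bases were 6.94% and 9.50% of the marked GG bins, against 10.9% to 20.9% and 16.9% to 33.9% elsewhere. The mean interval was 546 and 639 bp long in GG, again the lowest of the 20 autosomes, the next being chromosome 20 at 564 and 647 bp. In AG the mean interval was 391 and 454 bp long, the highest of the 20. That rank in AG rested on the block near 2.3 Mb, and without it the means were 346 and 408 bp, under the highest other autosome in each library (347 and 414 bp).

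**Figure D4:**
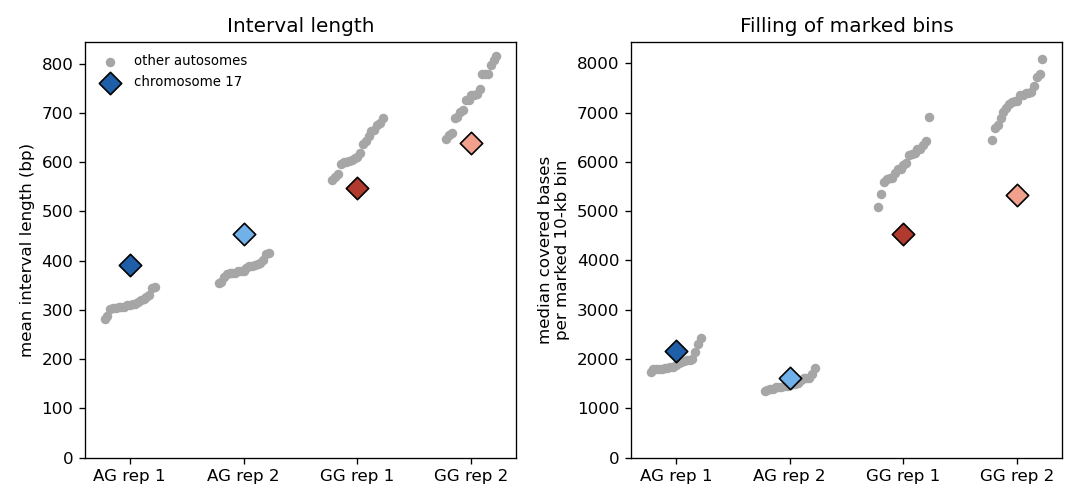
Mean interval length (left, bp) and median covered bases in marked bins of 10 kb (right) for each autosome and library. Grey points are the other 19 autosomes and diamonds chromosome 17, which is lowest in both GG libraries on both measures and has the highest mean interval length in both AG libraries. Without the block near 2.3 Mb the AG means were 346 and 408 bp, under the highest other autosome (347 and 414 bp).

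Domains of H3K27me3, for which intervals were merged across gaps of up to 1500 bp and 450 covered bases were required, were fewer and shorter in GG than on other autosomes. AG had 160 and 240 domains in its replicates 1 and 2, and GG had 288 and 188. Per length, the GG numbers were the lowest of all autosomes. The N50, the width at which domains of that width or more make up 50% of the summed width, averaged 4783 ± 408 bp (SD, n = 2) in AG, and 15317 ± 1795 bp (SD, n = 2) in GG. In GG replicates 1 and 2 it was 14048 and 16586 bp, below all other autosomes (from 16805 and 22955 bp). In AG it was 5071 and 4494 bp, near the upper end (other autosomes reached 7290 and 4503 bp). Domains of at least 50 kb numbered 0 and 1 in GG replicates 1 and 2, where every other autosome had 11 or more. The widest domain of chromosome 17 was 53.4 and 53.3 kb in AG and 45.4 and 52.9 kb in GG. The AG value rests on 1 domain. Among the domains common to both libraries of a group, 4 in AG and 21 in GG were at least 20 kb wide.

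The widest AG domains lay in a block near the start of the chromosome and in places without GG intervals. Domains were named where both libraries of a group covered them. The widest spanned 53.3 kb, from 2334734 to 2388030, with AG covering 92.3% and 92.1% of it and GG 59.2% and 77.2%. Its neighbours from 2314471 to 2331788 (17.3 kb) and from 2392592 to 2412855 (20.3 kb) were also among the 5 widest. In the latter, coverage reached 90.5% and 94.4% in AG, against 21.2% and 61.2% in GG. Together they fall in the block of 120 kb from 2300001 to 2420000, where AG coverage was 74.1% and 73.7% and GG coverage 38.6% and 58.0%. This block alone held 16.4% and 14.7% of all covered bases of chromosome 17 in AG, and 1.81% and 3.49% in GG. Without it, coverage of chromosome 17 relative to the autosomes averaged 0.901 ± 0.0741 (SD, n = 2) for AG, compared with 0.308 ± 0.0409 (SD, n = 2) for GG. Its most covered bin, from 2400001 to 2410000, held 9910 and 9937 bases in AG and 2774 and 7566 in GG.

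The other wide AG domains had no GG base at all. Of these, the domain from 93623278 to 93646929 (23.7 kb) was 81.0% and 88.0% covered in the AG replicates, and the domain from 45677148 to 45697444 (20.3 kb) was 81.8% and 90.5% covered. The latter belongs to a run of 5 bins from 45670001 to 45720000, covered to 44.2% and 55.3% in AG. It sat within 5.02 Mb without any GG interval, from 42310001 to 47330000. Its fullest bin, from 45680001 to 45690000, held 8747 and 9066 bases in AG, and the nearest GG interval was 1647 kb away in both GG libraries. The fullest AG bin without a GG base near the start, from 7310001 to 7320000, held 7780 and 7931 bases, and there GG intervals lay 17.7 and 18.6 kb away. The 73 bins of this kind formed 48 runs, of which 33 were single bins, and 33 of the bins lay beyond 90 Mb. Their median distance to a GG interval was 63.7 kb, within the range of the other autosomes (35.9 to 105.3 kb).

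Near 9 Mb a stretch with more AG than GG coverage lay next to one that was nearly bare in AG. This place and its edges were picked after its values were seen. From 8830001 to 9270000 AG coverage was scattered but frequent, at 17.8% and 19.4% in AG replicates 1 and 2 against 4.58% and 7.73% in GG replicates 1 and 2. In the next 360 kb, to 9630000, AG coverage was 0.0808% and 0.417% and GG coverage 27.7% and 24.7%. The last bins before the boundary were covered in both groups: the bin from 9250001 to 9260000 held 8705 and 8855 bases in AG and 4626 and 5874 in GG, and the bin from 9260001 to 9270000 held 5484 and 4683 bases in AG and 1209 and 4257 in GG. The bin that follows held 291 and 62 in AG and 5718 and 5589 in GG, so AG fell at the boundary while GG intervals lay on both sides of it.

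**Figure D5:**
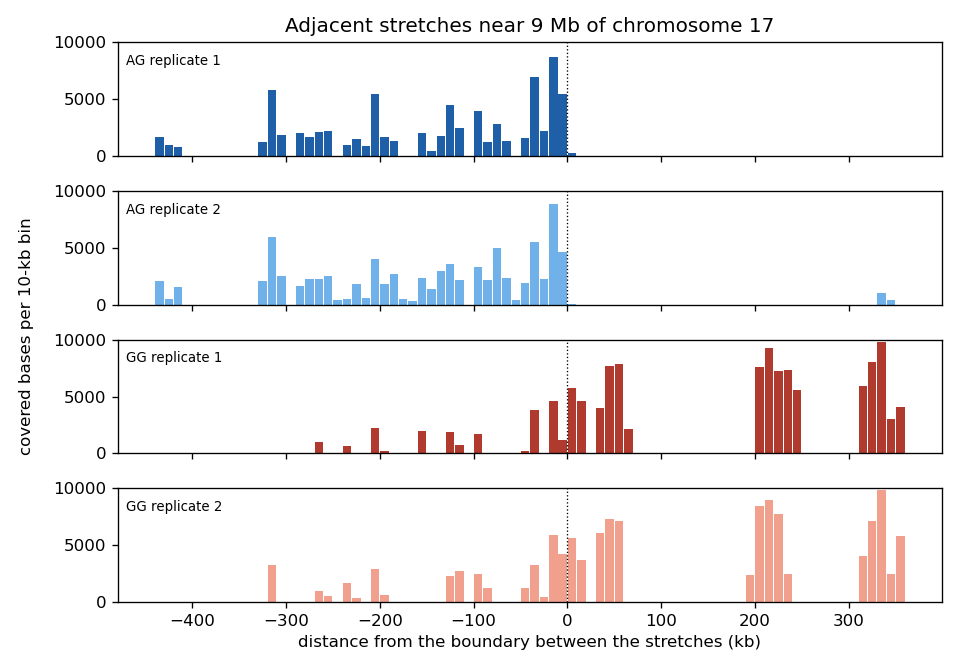
Covered bases in each bin of 10 kb (y axis, at most 10000) against the distance in kb from the boundary between these stretches (x axis), with a panel for each library. Bars of the AG libraries nearly end at the boundary, to the right of which AG coverage is 0.0808% and 0.417% and both GG libraries are covered to 27.7% and 24.7%.

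The widest GG domains lay in the interior and near the end of the chromosome, and 3 of the 5 widest held no AG base. The widest covered in both GG libraries ran from 81106176 to 81143776 (37.6 kb), at 93.2% and 93.8% in GG and 0% and 4.51% in AG. Domains from 91412702 to 91445805 (33.1 kb), from 91057221 to 91088977 (31.8 kb) and from 23582331 to 23613701 (31.4 kb) had no AG base, and both GG libraries covered 91.2% or more of each. The domain from 93817447 to 93851274 (33.8 kb) stood at 88.9% and 87.1% in GG and 30.8% and 9.63% in AG. Of 192 domains common to the GG libraries 68 (35.4%) held any AG base, against 26.4% over all autosomes, a share that 1 other autosome exceeded (chromosome 18, 36.6%). Of 127 domains common to the AG libraries 56 (44.1%) held any GG base, against 66.1% over all autosomes and 48.2% to 80.3% on the others. As with the bins, this share may depend on the low GG coverage for which the chromosome was chosen, which was not tested.

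In windows of 1 Mb the leading places of the groups overlapped in part. Of 96 windows, 52 (54.2%) had both GG libraries above both AG libraries, against 70.4% of all autosomal windows. The reverse held in 6 (6.25%), against 2.46% of all autosomal windows, and 18 windows (18.8%) had no base in any library, against 12.9%. The highest AG window, from 2000001 to 3000000, was covered to 8.89% and 9.27% in AG and 7.44% and 8.91% in GG. The last window, from 95000001 to the end, ranked first in GG (18.7% and 22.1%) and second in AG (7.01% and 7.99%). The window from 9000001 to 10000000 was also among the 5 highest in each group. By contrast the window from 91000001 to 92000000 was covered to 18.5% and 15.0% in GG and to only 0.714% and 0.347% in AG. Among the 6 windows where AG led, that from 45000001 had the highest AG mean, 2.60%, and no GG base.

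The bare interior contained long runs of bins without any interval. The longest without a base in any library ran for 5.37 Mb, from 59960001 to 65330000. The next ran for 3.36 Mb, from 42310001 to 45670000, and ended at the isolated AG run that begins at 45670001. On the other autosomes the longest such runs measured 1.88 to 6.18 Mb, so chromosome 17 lay within their range. Counting GG alone, the longest run without a base extended over 6.31 Mb from 59020001, where the AG libraries held 6677 and 7145 bases. Counting AG alone, a run of 5.37 Mb from 31800001 to 37170000 held 99387 and 61250 bases in the GG replicates. Assembly gaps and mappability were not analysed here.

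Chromosomes 18 and 11, which also had low ratios of GG to AG, did not share the pattern in bins covered by all libraries. Relative to the autosomes, chromosome 18 stood at 1.28 in AG and 0.612 in GG, and chromosome 11 at 1.30 and 0.791. AG bins without a GG base were 52 of 121 (42.98%) on chromosome 18, 65 of 241 (26.97%) on chromosome 11 and 73 of 145 (50.34%) on chromosome 17. Over the genome this share was 30.9%. In this share chromosome 18 thus lay above the genome, as chromosome 17 did, and chromosome 11 below it. AG led in 1 of 60 bins with a base in all 4 libraries on chromosome 18 and in 4 of 149 on chromosome 11, against 23 of 64 on chromosome 17. Of those 23 bins, 11 lay in the block from 2300001 to 2420000, and most of the others from 9000001 to 9270000. The contrast thus rests mainly on these places, which were picked after their values were seen. These differences between chromosomes were not tested.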

How the data were processed

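H3K27me3 CUT&RUN intervals of 2 AG and 2 GG rhesus morula libraries were used as deposited, grouped by their titles. SICER 1.1, deepTools 3.3.1, SAMtools, Bowtie2 and Trim Galore are named as tools and rheMac8 as the build, per the submitters' processing notes. By the file names, AG islands were called with a 200 bp window, a 200 bp gap and E 0.001, and GG islands with a 300 bp window, a 1200 bp gap and E 0.001. The intervals carry no count, score or strand. How tags were joined is not given in the sources used here. A deeper library or a larger gap raises covered bases.

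Covered bases were summed in bins of 10 kb, windows, strata of distance to the nearer end and domains, and chromosome 17 was set beside the other autosomes. Interval functions were tested on simulated intervals and were exact in 50 of 50 trials. Chromosome 17 and every list were chosen with earlier results of these data known. Named places were the 5 widest common domains per group, the 5 fullest AG bins without and with GG marks, and the 5 highest windows of 1 Mb, of which those that show the pattern are printed; the blocks near 2.3 and 9 Mb were picked after their values were seen. No test was made, since the choice used the AG and GG coverage, and with 2 libraries against 2 an exact two-sided permutation p cannot go below 0.333. Alternatives varied the reference level, marks, bin size, joining, calling rule, thinning and libraries. The software was pandas 2.3.3 and numpy 2.4.6 in Python 3.11.15, with scipy 1.17.1 for intervals and matplotlib 3.10.9 for plots.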

Additional observations from a re-analysis of the deposited data

How the results depend on the processing

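Of 65 alternatives to 10 results, 50 left the value within 1 SD, within the 95% exact binomial interval of the share (31.3% to 47.8%, counting error only) or within 1.5 times the count. With n = 2, leaving out a replicate always stays within 1 SD, so for relative coverage and N50 those alternatives could not move. The binomial interval treats bins as independent, although marked bins lie in runs and are not replicates. It is a yardstick only, and 50 of 65 is no measure of robustness. Without the outer 5 Mb of every autosome, the relative coverage of chromosome 17 was 0.783 for AG, against 0.272 for GG. Without the block near 2.3 Mb, set aside after seeing the data, it was 0.901 for AG. GG bins marked in both libraries numbered 542 in bins of 5 kb, 219 in bins of 25 kb and 63 after thinning every library to 42512 intervals, which removes mainly GG intervals and leaves 144 marked AG bins. Leaving out a library gave 187 to 250 marked AG bins, 379 to 533 marked GG bins, 112 to 193 bins with AG above GG and 339 to 523 with GG above AG, the highest AG counts without AG replicate 1 and the highest GG counts without GG replicate 2. With intervals joined up to 500 bp apart AG domains had an N50 of 3569 bp, GG domains one of 10999 bp, and up to 3000 bp apart 6229 and 17976 bp. The common clustering rule, added after seeing the data, left 15 bins with a base in all libraries and AG above GG. Dividing covered bases by the autosomal total gave 150 bins with AG above GG and 268 with GG above AG. No paired analysis was possible because the results come from no test and no label ties an AG replicate to a GG replicate.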
